A study of Mus musculus with 12 samples.

Results

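The cytosolic ribosome is built from ribosomal RNA and a set of small basic proteins, most of them present once per particle. The 86 genes were taken from the 34303 gene symbols of the table by name: protein-coding entries whose symbol begins with Rpl or Rps and a number, Rplp and a digit, or Rpsa, without the ribosomal S6 kinases and without symbols marked as pseudogenes. They hold 42 core genes of the large subunit, 31 core genes of the small subunit, the 3 genes of the P-stalk, 9 paralogs of core genes and Rps19bp1, which the name rule takes although its product binds a ribosomal protein and is none itself. Of the 86, 84 passed the filter on low values, and Rpl10l and Rps12l1 were listed at 0 in all 12 libraries. Fau and Gnb2l1, which encode further ribosomal proteins under other names, lie outside the rule, and Rpl13 was not analysed here.

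RNA sequencing was done on C57Bl6 mice in 4 groups. TAp63-/- cSCC (n = 4) and WT cSCC (n = 2) were cutaneous squamous cell carcinomas of mice aged over 35 weeks that had received chronic ultraviolet radiation of 2.5 kJ/m2, 3 times a week. TAp63-/- skin (n = 3) and WT skin (n = 3) were dorsal skin of untreated mice aged 4 weeks. TAp63-/- animals lack the p63 isoforms with the transactivation domain, in all cells as far as the labels say. The deposited values are FPKM (read fragments per transcript length and library size), and they share 1 distribution in all 12 libraries, so the read depth is unknown and values set libraries on a common ranking. Titles of all tumour libraries begin with LM and those of all skin libraries with Su, and the labels do not say what these prefixes stand for. Every library has its own identifier in the titles, with no word on its meaning. The p-values therefore cover the spread between these samples. The gene-level value of p63 cannot check the loss of TAp63, since the remaining isoforms share most of the gene.

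Tumour and skin also differ in age, in radiation and in sex. Xist, which is transcribed from the inactive X chromosome of females, lay between 21.5 and 83.6 FPKM in 5 tumours, at 0.173 FPKM in TAp63-/- cSCC replicate 1, and between 0.006 and 0.025 FPKM in the 6 skin libraries. The summed level of 4 Y-linked genes was 89.4 FPKM in TAp63-/- cSCC replicate 1 and at most 0.082 FPKM in the other 5 tumours, against 73.4 to 127 FPKM in the skin libraries. Sex thus went fully with tissue in the WT comparison and in all but 1 library of the TAp63-/- comparison. Age, radiation, tumour state, whatever the title prefixes stand for and, in the WT comparison, sex cannot be told apart here. In the TAp63-/- comparison 1 tumour library is too few to separate sex from them, and the fit had no term for sex. Keratinocyte markers were present in all libraries, with a summed level of 11129 to 25034 FPKM in TAp63-/- cSCC, 15139 to 34949 FPKM in WT cSCC, 5881 to 9386 FPKM in TAp63-/- skin and 5631 to 7537 FPKM in WT skin. In bulk tissue, fewer cells of a type and less RNA per cell cannot be told apart.

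As background, ribosomal proteins are made in the cytoplasm, carried into the nucleolus and assembled there on ribosomal RNA by a large set of assembly factors. Their genes are known for being transcribed at high and similar levels, and their messenger RNAs for starting with a C followed by an unbroken run of pyrimidines, the terminal oligopyrimidine (TOP) tract, through which translation follows mTOR and LARP1. Paralogs such as Rpl3l are known to replace or accompany a core protein in particular tissues, Rpl3l in skeletal and heart muscle and Rpl10l and Rpl39l in male germ cells.

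A pyrimidine tract near the annotated start is a sequence feature that the name rule did not use. It was searched on the given strand as a C followed by at least 5 bases that are C or T, starting between 10 bases before and 20 bases after the annotated start, in the RefSeq promoter table of GRCm38.p6. A gene with several starts counted if any of them held a tract, and a start with a tract was then the one shown. Of the 56 core and P-stalk genes with a promoter in that table, 34 held such a tract (60.71%), against 23 of 69 mitochondrial ribosomal protein genes (33.33%), 5 of 27 ribosome assembly genes (18.52%) and 7557 of all 27025 genes (27.96%). Among the paralogs it was 3 of 7. These are shares of genes with a match near the start, which may lie before or after it. They are not shares of genes with a TOP messenger RNA. The following stretches run from 20 bases before the start to 20 bases after it, 5′ to 3′, with the tract in capitals. They are examples picked with the levels known, and whether a tract goes with steadier levels was not tested. The highest library was 1.56 times the lowest for Rps6, 1.63 times for Rpl35 and 2.02 times for Rps10, but 2.75 times for Rplp2 and 4.71 times for Rpl39, which hold a tract too. For the paralogs that ratio was 8.13 (Rpl22l1), 8.87 (Rpl39l) and 256 (Rpl3l).
Rps6: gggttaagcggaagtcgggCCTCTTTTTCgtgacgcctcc
Rpl35: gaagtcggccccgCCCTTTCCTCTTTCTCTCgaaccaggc
Rps10: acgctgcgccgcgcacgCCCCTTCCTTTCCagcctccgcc
Rplp2: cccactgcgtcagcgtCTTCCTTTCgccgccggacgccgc
Rpl39: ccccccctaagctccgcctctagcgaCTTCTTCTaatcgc
Rpl22l1: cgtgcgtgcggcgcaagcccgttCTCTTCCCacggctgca
Rpl39l: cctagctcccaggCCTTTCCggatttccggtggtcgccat
Rpl3l: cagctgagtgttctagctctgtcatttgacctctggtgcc
The stretch of Rpl3l holds no such tract, and that of Rpl39l has a short one just before the start. Counted from the annotated start, the tract begins only at base 7 for Rpl39 and at base 4 for Rpl22l1. Rps6 lies on the minus strand at chr4:86857348-86857387, Rpl35 on the minus strand at chr2:39005112-39005151, Rps10 on the minus strand at chr17:27635225-27635264, Rplp2 on the plus strand at chr7:141447631-141447670, Rpl39 on the minus strand at chrX:37085203-37085242, Rpl22l1 on the plus strand at chr3:28805488-28805527, Rpl39l on the plus strand at chr16:10170208-10170247 and Rpl3l on the plus strand at chr17:24727806-24727845.

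The core genes were among the most abundant of the table and at the median varied less between libraries than other genes with a mean of at least 100 FPKM. Over the 12 libraries the median of their mean levels was 755.2 FPKM, with 74 of the 76 core and P-stalk genes at 300 FPKM or more. Rps26 had the highest mean, 3610 FPKM, followed by Rps24 at 3226 FPKM and Rpl39 at 3085 FPKM, and Rps20 had the lowest core mean, 181 FPKM. Core genes thus differed in FPKM among themselves although most of their products stand in equal number in the particle. The part of transcript length and of reads shared with copies in these differences was not tested. The ratio of the highest to the lowest library was below 2 for 45 of the 76 (59.21%), against 15.42% of the 681 other genes outside the mitochondrial genome with a mean of at least 100 FPKM. Its median was 1.85 for the core genes and 3.11 for those others, where 30 genes with a 0 in a library had no ratio. Those others were taken by their mean alone and not matched in level to the core genes. They include genes high only in tumours, such as Krt16 with 3.87 to 3493 FPKM, which widens the contrast. Rps12 was the steadiest, between 957 and 1231 FPKM. The ratio reached 3 or more in 5 core genes: Rpl39 (4.71), Rps21 (4.70), Rps20 (4.18), Rps15a (3.06) and Rps19 (3.01).

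Paralogs lay lower than most core genes, though Rpl36al was above Rpl31, Rplp2, Rps19 and Rps20. Rpl36al had a mean of 389 FPKM, Rps27l 165 FPKM, Rpl22l1 78.8 FPKM, Rpl7l1 26.7 FPKM, Rpl3l 17.4 FPKM, Rpl39l 7.58 FPKM and Rps4y2 7.45 FPKM. A total of 210 symbols marked with -ps as pseudogenes of these genes added 0.033 to 0.141% to the sum of both in any library. Copies under other symbols were not counted, and which reads were given to a gene or its copies is not known from the table. The Rps4y2 entry is Rps4l, a transcribed processed pseudogene, in GENCODE M21, and the Rps12l1 entry is a processed pseudogene there. Levels of near-identical copies such as Rps4y2, Rpl39l and Rpl36al are therefore uncertain. The Rpl24 entry spans more than the Rpl24 gene and carries the Ensembl identifier of its neighbour Zbtb11, and the Rpl13a entry is also wider than the annotated gene.

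**Figure D1:**
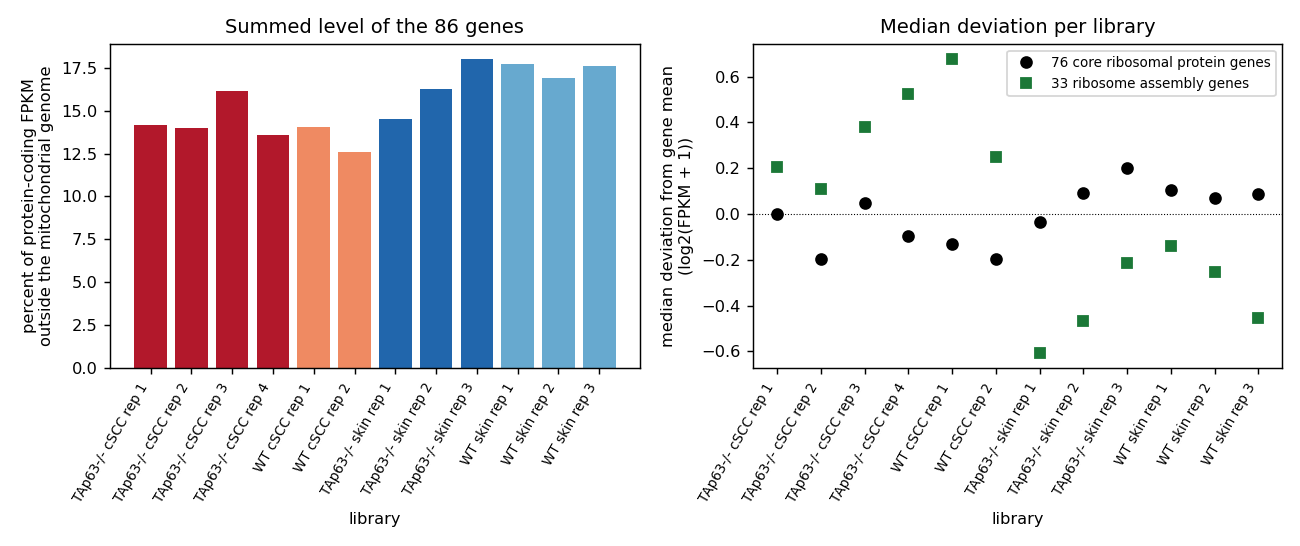
Left, summed FPKM of the 86 genes as a percent of all protein-coding FPKM outside the mitochondrial genome, 1 bar per library. Right, median deviation of 76 core ribosomal protein genes and of 33 ribosome assembly genes from each gene's mean over the 12 libraries, on the log2(FPKM + 1) scale. WT cSCC libraries lie at 12.6 and 14.0%, below the WT skin libraries at 16.9 to 17.7%, and assembly genes lie above 0 in all 6 tumours and below 0 in all 6 skin libraries.

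The summed level of the 86 genes was lower in WT cSCC than in WT skin and overlapped between TAp63-/- cSCC and TAp63-/- skin. As a share of protein-coding FPKM outside the mitochondrial genome it was 14.2, 14.0, 16.2 and 13.6% in TAp63-/- cSCC, 14.0 and 12.6% in WT cSCC, 14.5, 16.3 and 18.0% in TAp63-/- skin, and 17.7, 16.9 and 17.6% in WT skin. The means were 14.5% ± 1.15 (SD, n = 4) in TAp63-/- cSCC, 13.3% ± 1.02 (SD, n = 2) in WT cSCC, 16.3% ± 1.75 (SD, n = 3) in TAp63-/- skin and 17.4% ± 0.43 (SD, n = 3) in WT skin. Both WT tumours were below all 3 WT skin libraries. Among TAp63-/- libraries, tumour replicate 3 was above skin replicate 1, so the groups overlapped. No single library set the low end: TAp63-/- cSCC replicate 2 held the lowest value of 25 core genes, WT cSCC replicate 1 that of 18 and WT cSCC replicate 2 that of 13. These shares are a description without a test.

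In TAp63-/- skin the ribosomal protein genes lay close to their WT levels at the median, and none passed the test. With limma, 0 of the 84 genes tested had an adjusted p below 0.05 in TAp63-/- skin against WT skin, where 0.0203% of all genes were called. At an unadjusted p below 0.05 it was 1 of 84, against 5% of all genes. The median log2 change of the 84 was -0.06, against 0.02 for all tested genes, with 48 of 76 core genes negative, against 46.4% of all genes. On that scale 73 of 76 core genes lay within 0.5 of 0, against 92.7% of all genes. Ranges of the groups were separate for 5 genes on the higher and 2 on the lower side, against 6.77% and 3.85% of all genes.

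Rpl7, a large subunit protein, was the gene with the unadjusted p below 0.05. It had 649, 644 and 706 FPKM in TAp63-/- skin, against 564, 549 and 494 FPKM in WT skin, so all 3 values were above those of WT skin, with a log2 change of 0.32 (SE 0.12, limma adjusted p = 0.923). The lowest changes belonged to Rpl39 (-0.72, SE 0.54), Rps21 (-0.70, SE 0.41) and Rps4y2 (-0.63, SE 0.34), each with overlapping groups and a limma adjusted p of 0.923. The highest, beside Rpl7, were those of Rpl22l1 (0.46, SE 0.37) and Rpl6 (0.24, SE 0.15), also with overlapping groups and a limma adjusted p of 0.923. Rpl13a, next after the 3 lowest, had 2639, 2639 and 2230 FPKM in TAp63-/- skin, against 3855, 2994 and 3855 FPKM in WT skin, without overlap, and a log2 change of -0.51 (SE 0.21, limma adjusted p = 0.923). Its values repeat because libraries share 1 set of ranked values.

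Between carcinomas of the 2 genotypes no gene of the table passed the test, the ribosomal protein genes included. With limma, 0 of 84 were called in TAp63-/- cSCC against WT cSCC, where 0% of all genes were, and 0 of 84 had an unadjusted p below 0.05, against 2.84% of all genes. The median log2 change was 0.08, against 0.03 for all genes, and 29 of 76 core genes were negative, against 46.6% of all genes. Within 0.5 of 0 lay 68 of 76, against 80.9% of all genes. Separate ranges occurred in 10 genes on the higher and 2 on the lower side, against 5.71% and 4.14% of all genes. With 2 WT tumours the comparison is coarse, and a missed threshold does not show that the genotypes were alike.

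The largest positive changes between the tumours were those of Rpl9 (0.68, SE 0.34), Rps20 (0.64, SE 0.60) and Rpl31 (0.64, SE 0.27), all with a limma adjusted p of 1. Rpl9 had 598, 896, 946 and 566 FPKM in TAp63-/- cSCC, against 459 and 454 FPKM in WT cSCC. Rpl31, which sits at the exit of the peptide tunnel, had 322, 384, 472 and 317 FPKM in TAp63-/- cSCC, against 227 and 247 FPKM in WT cSCC. For both genes all 4 TAp63-/- tumours were above both WT tumours. On the lower side stood Rpl3l (-1.14, SE 0.48), Rps21 (-0.60, SE 0.40) and Rplp2 (-0.54, SE 0.39), again with a limma adjusted p of 1.

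**Figure D2:**
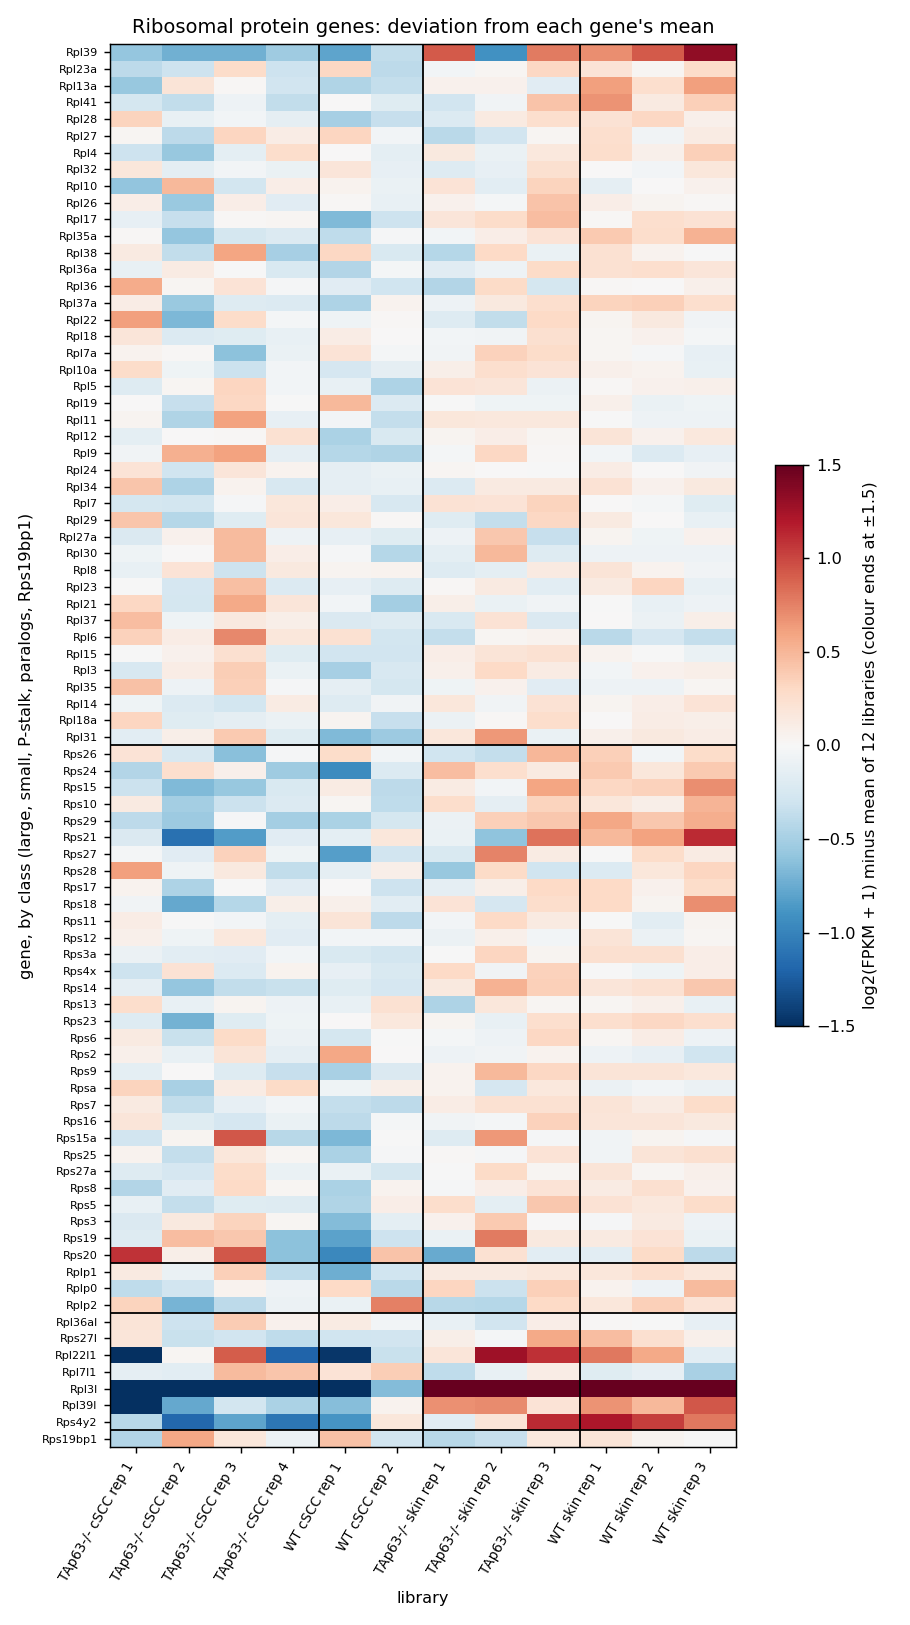
Deviation of 84 genes from their own mean over 12 libraries on the log2(FPKM + 1) scale, genes in rows by class and falling mean level, libraries in columns by group, with colours ending at 1.5 in either direction. Most core rows stay pale, while Rpl3l separates the 6 tumours from the 6 skin libraries and Rpl39 is low in the 6 tumours and in TAp63-/- skin replicate 2.

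Against skin, most core genes lay slightly lower in carcinomas and few passed the test, while 3 of the 7 tested paralogs fell in TAp63-/- cSCC and 1 in WT cSCC. In TAp63-/- cSCC against TAp63-/- skin, 0 of 84 genes rose and 4 fell by limma (Rpl3l, Rpl39l, Rps4y2 and Rps14), where 13% of all genes rose, 14.2% fell and 27.2% were called in either direction. In WT cSCC against WT skin, 0 rose and 2 fell (Rpl3l and Rps29), where 4.66% of all genes rose, 6.77% fell and 11.4% were called. Both counts, 4 and 2 of 84, were low beside the shares of the whole table. At an unadjusted p below 0.05 it was 10 of 84 in the TAp63-/- comparison, against 40.2% of all genes, and 19 of 84 in the WT comparison, against 28.1%.

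The direction was mostly downward. The median log2 change of the 84 was -0.15 in TAp63-/- cSCC against TAp63-/- skin, where all genes had 0.10, and -0.27 in WT cSCC against WT skin, where all genes had 0.04. Of the 76 core and P-stalk genes, 54 had a negative change in the TAp63-/- comparison and 66 in the WT comparison, against 43.9% and 47.2% of all genes. Those negative in both numbered 51, those positive in both 7, and 18 differed in sign. Both comparisons have their own skin and tumour libraries but share 1 estimate of the spread.

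Sizes were small: 70 of 76 core genes in the TAp63-/- comparison and 60 of 76 in the WT comparison lay within 0.5 of 0 on the log2 scale, against 52.8% and 56.5% of all genes. The WT tumours lay below the WT skin libraries without overlap for 49 of the 84, and above them for 2, against 25.5% and 27.3% of all genes. In the TAp63-/- comparison it was 9 below and 1 above, against 16.2% and 17.8% of all genes. The change by subunit was -0.08 for the large and -0.20 for the small subunit at the median in the TAp63-/- comparison, and -0.21 and -0.37 in the WT comparison.

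The difference between the 2 tumour-skin changes was tested as an interaction of genotype and tissue. With limma, 0 of 84 genes were called, where 0.0271% of all genes were, and 0 of 84 had an unadjusted p below 0.05, against 3.01% of all genes. The median difference was 0.13 for the 84 and 0.01 for all genes, with 20 of 76 core genes negative, against 48.5% of all genes. Within 0.5 of 0 lay 69 of 76, against 78.4% of all genes. The largest differences were those of Rps20 (0.78, SE 0.71), Rpl13a (0.74, SE 0.36) and Rpl39 (0.66, SE 0.61) on the positive side and Rpl3l (-1.06, SE 0.54), Rpl7a (-0.47, SE 0.32) and Rps2 (-0.43, SE 0.29) on the negative side, each with a limma adjusted p of 1.

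**Figure D3:**
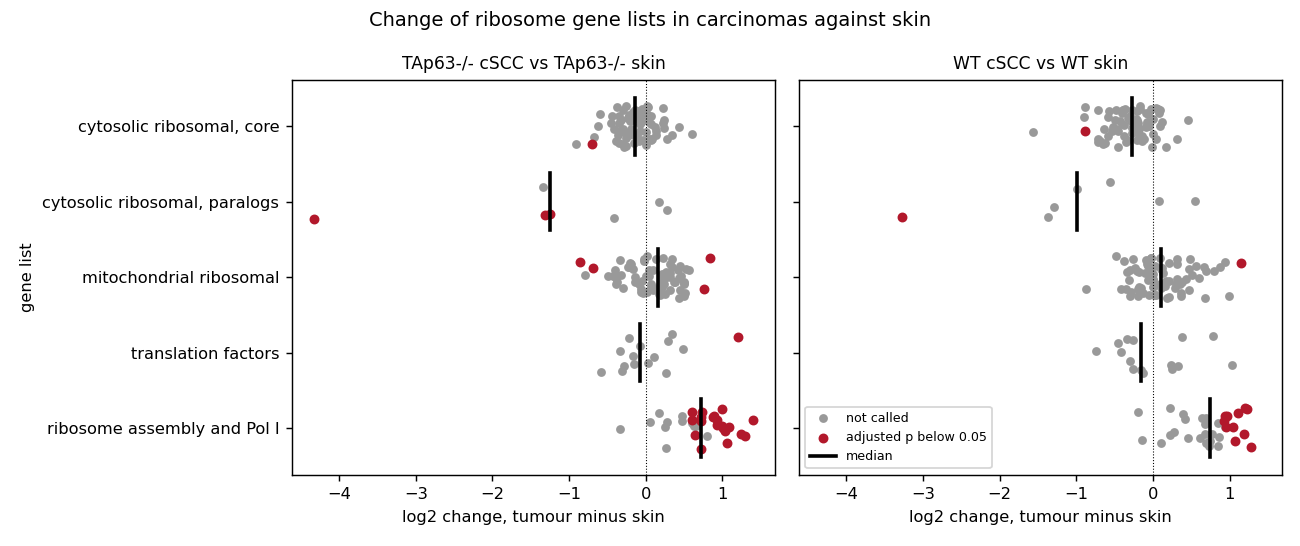
Log2 change of each tested gene, TAp63-/- cSCC against TAp63-/- skin (left) and WT cSCC against WT skin (right), by gene list, with red points for a limma adjusted p below 0.05 and a black line at the list's median. Core ribosomal protein genes cluster just below 0, their paralogs spread down to Rpl3l at -4.33 and -3.27, and ribosome assembly genes lie above 0 with medians near 0.7.

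Rpl3l, the striated muscle paralog of the large subunit protein Rpl3, fell most. It had 1.15, 1.51, 0.162 and 0.171 FPKM in TAp63-/- cSCC, against 41.4, 26.7 and 29.8 FPKM in TAp63-/- skin. It had 1.42 and 4.44 FPKM in WT cSCC, against 30.1, 36.6 and 35.6 FPKM in WT skin. All 6 tumours were below all 6 skin libraries. On the log2(FPKM + 1) scale, which understates the change of low genes, it changed by -4.33 (SE 0.34, limma adjusted p = 1.88e-05) in the TAp63-/- comparison and by -3.27 (SE 0.41, limma adjusted p = 0.00107) in the WT comparison.

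Its partner Rpl3, a core protein near the peptidyl transferase centre, had 358, 459, 549 and 396 FPKM in TAp63-/- cSCC, against 447, 521 and 462 FPKM in TAp63-/- skin. In WT cSCC it had 299 and 359 FPKM, against 411, 443 and 451 FPKM in WT skin. Rpl3 did not pass the test in either comparison, with log2 changes of -0.13 (SE 0.18) and -0.41 (SE 0.22). The Rpl3l level as a percent of that of Rpl3 was 0.18% ± 0.17 (SD, n = 4) in TAp63-/- cSCC, 0.86% ± 0.54 (SD, n = 2) in WT cSCC, 6.95% ± 2.11 (SD, n = 3) in TAp63-/- skin and 7.83% ± 0.48 (SD, n = 3) in WT skin.

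Skeletal muscle genes moved with Rpl3l. The 9 muscle markers present, among them Ckm, Myh4 and Actn3, which act in muscle energy supply and contraction, summed to 74.9 to 418 FPKM in TAp63-/- cSCC and 171 to 867 FPKM in WT cSCC, against 9031 to 14513 FPKM in TAp63-/- skin and 8819 to 9397 FPKM in WT skin. All 9 fell in the TAp63-/- comparison and 8 of 9 in the WT comparison by limma, none of them was at 0 in every library of a group, and their median log2 changes were -5.99 and -4.53. Within the tumours, the library with the highest muscle sum, WT cSCC replicate 2, also had the highest Rpl3l, and TAp63-/- cSCC replicates 3 and 4, with the lowest muscle sums, had the lowest. The tumours between these did not keep the order. TAp63-/- cSCC replicate 1 had 418 FPKM of muscle genes and 1.15 FPKM of Rpl3l. WT cSCC replicate 1 had 171 and 1.42 FPKM, and TAp63-/- cSCC replicate 2 had 274 and 1.51 FPKM. The part of muscle in the fall of Rpl3l was not tested.

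**Figure D4:**
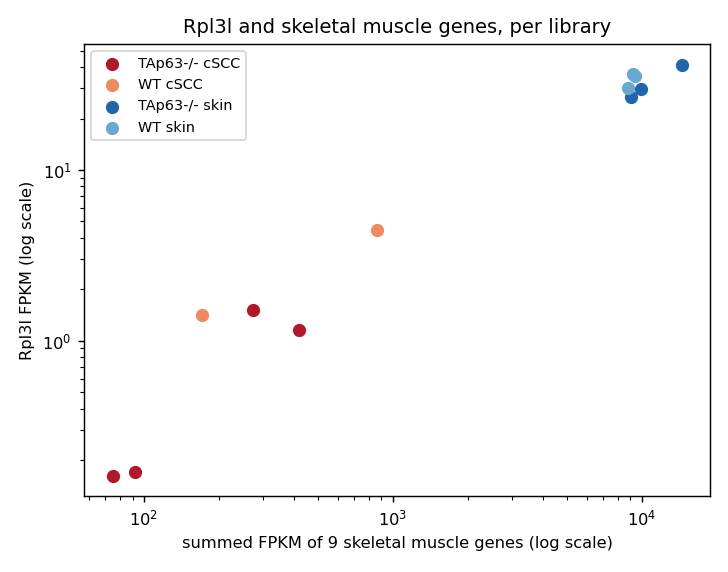
Rpl3l FPKM against the summed FPKM of 9 skeletal muscle genes, 1 point per library, both axes on a log scale, coloured by group. The 6 skin libraries lie together at 8819 to 14513 FPKM of muscle genes and 26.7 to 41.4 FPKM of Rpl3l, and the 6 tumours lie at 74.9 to 867 FPKM and 0.162 to 4.44 FPKM.

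The 250 bases before the start of Rpl3l are shown because this gene moved most and together with muscle genes. The stretch lies on the plus strand at chr17:24727576-24727825 of GRCm38.p6, from the RefSeq promoter table. Capitals mark CANNTG, the E-box recognised by muscle regulators such as MyoD, which reads alike as a pattern on both strands.
Rpl3l promoter: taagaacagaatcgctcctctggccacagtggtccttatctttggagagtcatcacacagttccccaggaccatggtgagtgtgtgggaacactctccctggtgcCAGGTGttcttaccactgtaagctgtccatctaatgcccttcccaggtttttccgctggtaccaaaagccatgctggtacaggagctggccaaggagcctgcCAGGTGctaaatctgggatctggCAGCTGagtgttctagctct
It held 3 matches. Of all promoters of that length in the table, 66.22% held at least 1 and 12.21% held at least 3, and the median was 1. A match is a description of the letters and says nothing about binding.

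Rpl39l, a paralog of Rpl39 known from testis, fell in the TAp63-/- comparison at low levels. It had 1.53, 3.50, 5.33 and 4.50 FPKM in TAp63-/- cSCC, against 11.3, 11.5 and 7.80 FPKM in TAp63-/- skin, without overlap, a log2 change of -1.31 (SE 0.31, limma adjusted p = 0.0107). In WT cSCC it had 3.92 and 6.96 FPKM, against 11.2, 9.74 and 13.6 FPKM in WT skin, also without overlap, with a log2 change of -0.99 (SE 0.37, limma adjusted p = 0.109). The 4 spermatid genes fixed as testis markers summed to at most 0.11 FPKM in any library, and Rpl10l, the other testis paralog, was listed at 0. The ratio of Rpl39l to Rpl39 stayed below 1% in every library.

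Rps4y2, the processed copy of the X-linked Rps4x, also fell in the TAp63-/- comparison. It had 4.36, 2.15, 3.12 and 2.36 FPKM in TAp63-/- cSCC, against 5.41, 7.15 and 14.4 FPKM in TAp63-/- skin, a log2 change of -1.25 (SE 0.34, limma adjusted p = 0.0198). It had 2.85 and 7.02 FPKM in WT cSCC, against 15.5, 13.6 and 11.3 FPKM in WT skin, a log2 change of -1.37 (SE 0.41, limma adjusted p = 0.0515). Tumours and skin of the same genotype did not overlap in either pair. Without TAp63-/- skin replicate 3, the highest of its group, the first change had a limma adjusted p of 0.0771. Rps4x did not pass the test, with log2 changes of -0.26 (SE 0.19) and -0.19 (SE 0.23).

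Among core genes, Rps14 and Rps29 each fell in 1 comparison. Rps14, a protein of the small subunit platform, had 806, 590, 681 and 700.3 FPKM in TAp63-/- cSCC, against 977, 1269 and 1130 FPKM in TAp63-/- skin, without overlap, a log2 change of -0.70 (SE 0.18, limma adjusted p = 0.0158). It had 776 and 741 FPKM in WT cSCC, against 1002, 1032 and 1168 FPKM in WT skin, a log2 change of -0.49 (SE 0.21, limma adjusted p = 0.163). Without TAp63-/- skin replicate 2, its highest library, the TAp63-/- change no longer passed, with -0.61 and a limma adjusted p of 0.0652.

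Rps29, a zinc-binding protein of the small subunit head, had 1320 and 1525 FPKM in WT cSCC, against 2748, 2437 and 2685 FPKM in WT skin, a log2 change of -0.88 (SE 0.25, limma adjusted p = 0.047). It had 1401, 1257, 1815 and 1288 FPKM in TAp63-/- cSCC, against 1725, 2358 and 2437 FPKM in TAp63-/- skin, a log2 change of -0.59 (SE 0.21, limma adjusted p = 0.0603). The WT groups did not overlap, and the TAp63-/- groups did. Leaving out any 1 of the 5 WT libraries ended the WT call, with limma adjusted p-values up to 0.237, reached without WT cSCC replicate 1.

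Rpl39, a short protein of the peptide exit tunnel, varied most among core genes. It had 1756, 1591, 1591 and 1815 FPKM in TAp63-/- cSCC and 1525 and 2031 FPKM in WT cSCC, against 4970, 1401 and 4510 FPKM in TAp63-/- skin and 4268, 4970 and 6594 FPKM in WT skin. A single skin library, TAp63-/- skin replicate 2, was below the TAp63-/- tumours, and the other 5 were above all tumours. The log2 change was -0.90 (SE 0.39, limma adjusted p = 0.11) in the TAp63-/- comparison and -1.56 (SE 0.47, limma adjusted p = 0.0556) in the WT comparison. Without TAp63-/- skin replicate 2 the TAp63-/- change was -1.49 with a limma adjusted p of 0.00357.

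**Figure D5:**
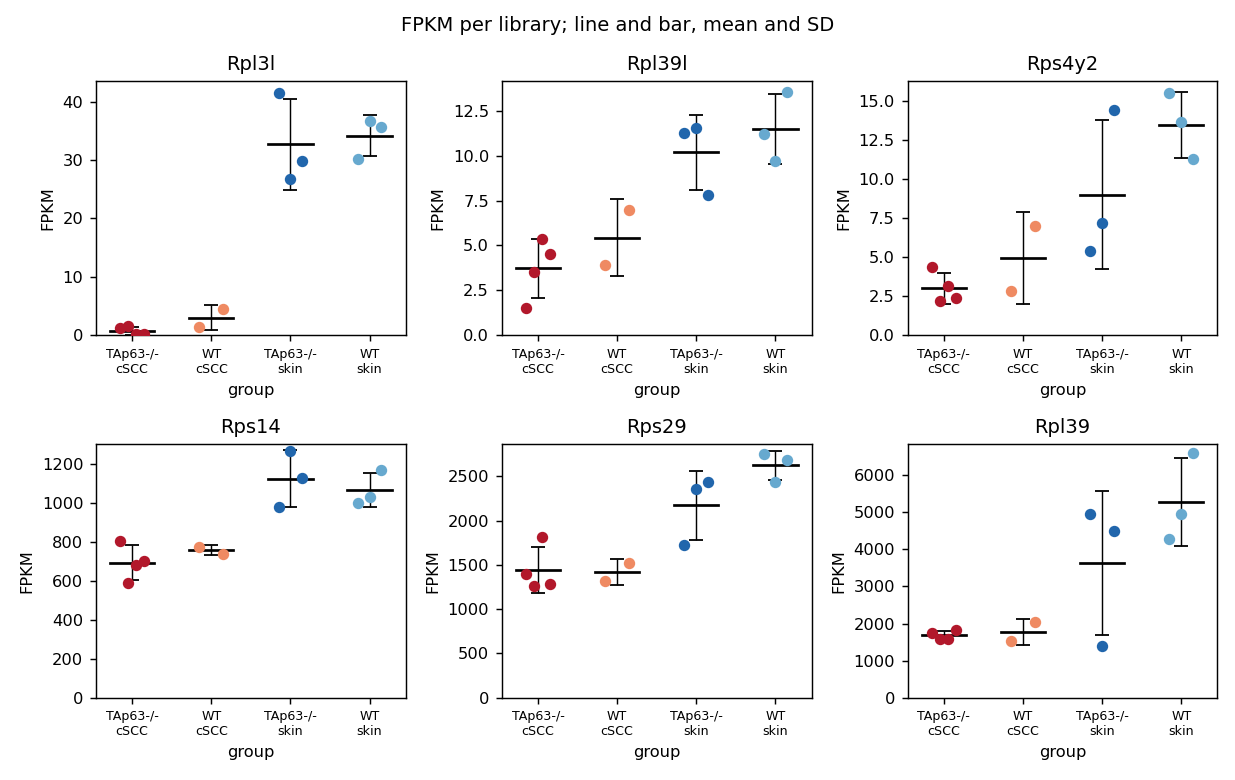
FPKM of Rpl3l, Rpl39l, Rps4y2, Rps14, Rps29 and Rpl39 in each library, with a horizontal line at the group mean and bars of 1 SD. Tumours lie below the skin of the same genotype in all 6 panels except for Rps29, where 1 TAp63-/- tumour at 1815 FPKM is above TAp63-/- skin replicate 1, and Rpl39, where TAp63-/- skin replicate 2 lies at 1401 FPKM.

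Rpl22l1, the paralog of the RNA-binding protein Rpl22, spread widely within groups. It had 19.4, 65.7, 122 and 27.4 FPKM in TAp63-/- cSCC and 22.9 and 50.9 FPKM in WT cSCC, against 73.6, 158 and 140 FPKM in TAp63-/- skin and 112, 95.9 and 57.7 FPKM in WT skin. The TAp63-/- groups overlapped through tumour replicate 3, the WT groups did not overlap, and neither change passed the test, with -1.34 (SE 0.57) and -1.29 (SE 0.69). Rpl22 itself differed by 0.13 (SE 0.29) and -0.07 (SE 0.34) in the same comparisons.

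The remaining paralogs did not pass the test. Rpl7l1, a relative of the large subunit protein Rpl7, had the largest positive change of all 84 in the WT comparison. It had 30.2 and 34.0 FPKM in WT cSCC, against 23.0, 23.9 and 18.3 FPKM in WT skin, without overlap, and a log2 change of 0.55 (SE 0.25, limma adjusted p = 0.18), beside 0.28 (SE 0.21) in the TAp63-/- comparison. Rps27l, known as a p53 target, had changes of -0.41 (SE 0.20) in the TAp63-/- and -0.56 (SE 0.24) in the WT comparison. Rpl36al had changes of 0.18 (SE 0.19) and 0.08 (SE 0.23). Rps19bp1, a partner of Rps19 and the deacetylase SIRT1, had 0.26 (SE 0.26) and -0.00 (SE 0.31).

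On the higher side in tumours stood Rps2 and Rpl6 beside Rpl7l1 in the WT comparison, with log2 changes of 0.46 (SE 0.22) and 0.31 (SE 0.25), and Rps20, Rpl6 and Rpl36 in the TAp63-/- comparison, with 0.60 (SE 0.45), 0.43 (SE 0.21) and 0.34 (SE 0.22). Rpl6 had 620, 527, 806 and 549 FPKM in TAp63-/- cSCC, against 382, 498 and 506 FPKM in TAp63-/- skin. It was the 1 gene whose 4 TAp63-/- tumours were all above the TAp63-/- skin libraries, and its limma adjusted p was 0.151.

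A further 7 core genes with known roles in signalling, disease or assembly (Rpl5, Rpl11, Rps6, Rps27a, Rpsa, Rps19 and Rpl10) did not pass the test in either tumour-skin comparison. Rpl5 and Rpl11, which with 5S ribosomal RNA bind and restrain MDM2, changed by -0.07 (SE 0.18) and -0.15 (SE 0.23) in the TAp63-/- comparison and by -0.34 (SE 0.22) and -0.14 (SE 0.28) in the WT comparison. Rps6, the classic substrate of S6 kinase, had 916, 662, 1011 and 781 FPKM in TAp63-/- cSCC and 695 and 831 FPKM in WT cSCC, against 812, 787 and 1032 FPKM in TAp63-/- skin and 852, 896 and 787 FPKM in WT skin. Its tumours overlapped with skin in both genotypes, with changes of -0.07 (SE 0.20) and -0.15 (SE 0.24). Rps27a, which is made as a fusion with ubiquitin, and Rpsa, the laminin receptor protein of the small subunit, changed by -0.17 (SE 0.18) and 0.07 (SE 0.22) in the TAp63-/- comparison and by -0.28 (SE 0.22) and 0.09 (SE 0.26) in the WT comparison. Rps19, mutated in Diamond-Blackfan anaemia, had changes of -0.26 (SE 0.30) and -0.64 (SE 0.36), and Rpl10, which joins the large subunit late in assembly, -0.20 (SE 0.26) and -0.00 (SE 0.31).

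The P-stalk recruits the elongation factors. Its scaffold Rplp0 changed by -0.29 (SE 0.27) and -0.21 (SE 0.32), Rplp1 by -0.14 (SE 0.22) and -0.71 (SE 0.27), and Rplp2 by -0.03 (SE 0.30) and 0.09 (SE 0.35) in the TAp63-/- and the WT comparison, none of them past the test. Rplp1 had 1651 and 2230 FPKM in WT cSCC, against 3085, 3262 and 3085 FPKM in WT skin, without overlap. Fau and Gnb2l1, outside the name rule, did not pass the test in any comparison, with changes of -0.30 and -0.28 in the TAp63-/- and of -0.32 and -0.16 in the WT comparison.

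Genes of the factors that build ribosomes lay higher in carcinomas. Of 34 tested genes for ribosome assembly and RNA polymerase I, a list that includes Rps19bp1, 20 rose and 0 fell in TAp63-/- cSCC against TAp63-/- skin, where 13% of all genes rose, with a median log2 change of 0.72. In WT cSCC against WT skin 11 rose and 0 fell, where 4.66% of all genes rose, with a median of 0.74. In the genotype comparisons 0 of 34 were called. Nop56, a box C/D snoRNP protein, had 48.1, 49.2, 59.6 and 66.6 FPKM in TAp63-/- cSCC and 89.4 and 53.3 FPKM in WT cSCC, against 18.2, 18.1 and 25.4 FPKM in TAp63-/- skin and 28.7, 31.4 and 26.5 FPKM in WT skin. All 6 tumours were above all 6 skin libraries, with changes of 1.40 (SE 0.21, limma adjusted p = 0.000836) and 1.23 (SE 0.25, limma adjusted p = 0.0116). Nop2, a ribosomal RNA methyltransferase, changed by 1.30 (SE 0.22) and 1.28 (SE 0.26), and Gnl3, the nucleolar GTPase nucleostemin, by 1.24 (SE 0.21) and 0.95 (SE 0.26), all past the test. The median of 33 assembly genes lay 0.11 to 0.68 above their mean in the 6 tumours and 0.14 to 0.61 below it in the 6 skin libraries, while that of the core ribosomal protein genes lay between -0.20 and 0.05 in tumours and between -0.03 and 0.20 in skin.

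Other lists around translation are read against the 13% of all genes that rose and 14.2% that fell in the TAp63-/- comparison, and 4.66% and 6.77% in the WT comparison. Of 76 tested mitochondrial ribosomal protein genes, 2 rose and 2 fell in the TAp63-/- comparison, and 1 rose in the WT comparison, Mrps25 (1.14, SE 0.30, limma adjusted p = 0.0318). Of 15 translation factors with TOP messenger RNAs, 1 rose in the TAp63-/- comparison, the poly(A)-binding protein gene Pabpc1 (1.20, SE 0.31, limma adjusted p = 0.0155), and 0 in the WT comparison. Of 17 genes of the Myc and mTOR arm, 4 rose in the TAp63-/- comparison (Eif4ebp1, Larp1, Rps6kb2 and Mtor) and Mycn fell, and in the WT comparison 0 rose and Mycn fell. Of 3 snoRNA host genes, 1 rose in the TAp63-/- comparison, Snhg12 (1.35, SE 0.29, limma adjusted p = 0.0062), and of 5 genes of the 5S particle and p53 arm, 0 were called.

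Markers of other cell types moved in the same contrasts, and some libraries stood apart in them. Adipocyte markers summed to 2.89 to 54.8 FPKM in TAp63-/- cSCC and 24.8 to 210.0 FPKM in WT cSCC, against 279 to 1919 FPKM in TAp63-/- skin and 771 to 1120 FPKM in WT skin, and all 5 and 3 of 5 fell. Fibroblast markers summed to 508 to 1452 FPKM in TAp63-/- cSCC and 775 to 827 FPKM in WT cSCC, against 2687 to 4806 FPKM in TAp63-/- skin and 1608 to 2945 FPKM in WT skin, and 4 of 5 and 2 of 5 fell. Keratinocyte markers rose for 5 of 7 and 3 of 7 and fell for 1 and 0. Melanocyte markers summed to 1.96 to 5 FPKM in TAp63-/- cSCC and 1.51 and 46.3 FPKM in WT cSCC, against 20.2 to 196 FPKM in TAp63-/- skin and 81.8 to 193 FPKM in WT skin, and 5 of 5 and 1 of 5 fell. Leukocyte markers summed to 362 to 15678 FPKM in TAp63-/- cSCC, with replicate 1 at the top, and 1209 and 1519 FPKM in WT cSCC, against 107 to 259 FPKM in TAp63-/- skin and 115 to 222 FPKM in WT skin, and 1 of the 5 tested rose in each comparison. That gene was S100a8, which made up most of the tumour sums, with 15539 FPKM in TAp63-/- cSCC replicate 1. Of the 5 tested, 3 had a negative change in each comparison, and the medians were -0.09 and -0.14. Hair follicle markers ran from 6.33 to 335 FPKM in TAp63-/- cSCC, stood at 16.3 and 3115 FPKM in WT cSCC, and ran from 10.3 to 3498 FPKM in TAp63-/- skin and from 383 to 4530 FPKM in WT skin, with 0 of 6 called. Endothelial markers overlapped between all groups, at 28.8 to 47.5 FPKM, with 0 of 4 called. The part of these cell types in the core ribosomal protein levels was not tested.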

How the data were processed

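Reads of the 12 libraries went through TopHat2 2.0 and Cufflinks 2.0 with mouse build mm10, as the submitters' processing notes list. FPKM were deposited by the authors, a unit inferred from Cufflinks and the values. In every library at least 99.985% of sorted values of 1 FPKM or more lay within 1% of a common value, from which quantile normalization was inferred. Depth per library is unknown, so no counting intervals are given.

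From these values, FPKM of the 272 symbols with more than 1 of the 37924 entries were summed (0 of the 86 genes). The 14752 genes that reached 1 FPKM in 2 or more libraries were fitted as log2(FPKM + 1) in limma 3.58.1 (R 4.3.3) using a variance trend, two-sided, Benjamini-Hochberg adjusted over all tested genes, and called below 0.05. The method was tested on simulated data. Genotype comparisons used the 6 libraries of a tissue, and tumour-skin comparisons and the interaction used all 12. Tables were made with Python 3.11.15 and pandas 2.3.3.

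The 86 identifiers were all found in GENCODE M21, 47 with the same coordinates. Promoters came from RefSeq (GRCm38.p6), for 64 of the 86. The genes and lists were chosen with earlier results of these data known. Genes named with values were the paralogs and their partners, the P-stalk genes, genes with other known roles, the highest and lowest gene, called genes, and the 3 largest changes in a direction with fewer than 3 calls. Rps10, Rps12, Rps15a, Rps24, Rpl13a, Rpl23a, Rpl24, Rpl28, Rpl35, Rps9 and Rps15 were also named, after their values were seen, for their spread, place or sequence. Alternatives were other pseudocounts, filters, scalings and variance models, and leaving out each library.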

Additional observations from a re-analysis of the deposited data

Results flagged for a closer look

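In the group of 4, TAp63-/- cSCC, 43 of the genes were examined for 1 library far from the other 3, and 3 stood out, while chance flags about 1 in 20. Some of the 43, Rpl23a and Rpl28 among them, were named after their values were seen. The count therefore cannot be judged against that rate. Rps27l had 183 FPKM in TAp63-/- cSCC replicate 1, against 123 to 132 FPKM in the other 3, a gap of 0.858 of the group's range. Rpl23a had 3420 FPKM in TAp63-/- cSCC replicate 3, against 2154 to 2282 FPKM in the others, a gap of 0.899 of the range. Rpl28 had 1815 FPKM in TAp63-/- cSCC replicate 1, against 1320 to 1401 FPKM in the others, a gap of 0.835 of the range.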

How the results depend on the processing

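The 3 comparisons without a called gene had 0 calls under every alternative run. In WT cSCC against WT skin the count of 2 became 1 with a pseudocount of 0.1, without a filter and with array weights, 4 without a variance trend and 5 with a filter of 5 FPKM in 3 libraries, and ran from 1 to 2 when 1 library was left out. In TAp63-/- cSCC against TAp63-/- skin the count of 4 became 7 with array weights and ran from 3 to 6 when 1 library was left out. The median changes kept their sign under all alternatives, from -0.22 to -0.11 in the TAp63-/- and from -0.35 to -0.25 in the WT tumour-skin comparison. The median genotype difference ran from -0.08 to -0.01 in skin (-0.06 as reported) and from 0.02 to 0.16 in tumours (0.08 as reported). The smallest size in skin came without TAp63-/- skin replicate 1, and the bounds in tumours came from the 2 rescalings, with 0.02 without TAp63-/- cSCC replicate 3 and 0.12 without replicate 2. The median interaction of 0.13 was 0.22 after scaling to a common sum outside the mitochondrial and ribosomal protein genes, and ran from 0.08 (without TAp63-/- skin replicate 1) to 0.21 (without TAp63-/- cSCC replicate 2) when 1 library was left out. Calls of Rpl3l and of Rpl39l were kept in all 18 alternatives of the TAp63-/- comparison, and that of Rpl3l in all 16 of the WT comparison. The call of Rps29 was lost in 10 of 16, that of Rps14 in 2 of 18 and that of Rps4y2 in 1 of 18, with log2 changes of -0.99 to -0.78, -0.79 to -0.61 and -1.52 to -0.76 over the alternatives. Calls were gained in the TAp63-/- comparison for Rps29 in 5 alternatives, Rps15 in 3, Rpl22l1 in 2 and Rpl39 and Rps9 in 1 each, and in the WT comparison for Rps4y2 in 5, Rpl39 in 4, Rpl13a in 2 and Rpl31 in 1, all downward. The cause was not tested. No paired analysis was possible because the labels give no replicate number shared between groups. WT cSCC has 2 libraries, and the unknown depth limits low genes such as Rpl39l and Rps4y2.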
